A study of Mus musculus with 15 samples.

Results

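The Aster genes Gramd1a, Gramd1b and Gramd1c and the related GRAM domain gene Gramd4 were described across 15 RNA-seq libraries of mouse distal jejunum, the last stretch of the middle part of the small intestine. The genes were taken by their symbols, as 4 of the 26844 genes in the deposited table, and all 4 passed the filter on low values (10 normalised counts or more in 3 or more libraries). The mice were male C57BL/6 animals aged 13 to 15 weeks, and every diet held 0.08% cholesterol. Aster-B/C knockout mice, which lack both proteins throughout the body (KO), ate the control diet (n = 3) or the same diet with 0.01% ezetimibe (n = 4). Wild-type mice (WT) ate the control diet (n = 4) or the ezetimibe diet (n = 4). The sources used here do not say which exons of Gramd1b and Gramd1c were removed, and a gene count in KO can include reads from exons that are still present.

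Aster proteins sit in the membrane of the endoplasmic reticulum. Their GRAM domain binds the plasma membrane when cholesterol builds up there, and their ASTER domain holds a sterol and carries it to the endoplasmic reticulum without vesicles. Gramd1a encodes Aster-A, Gramd1b encodes Aster-B and Gramd1c encodes Aster-C. Gramd4 encodes a GRAM domain protein that lacks the ASTER domain. Ezetimibe blocks NPC1L1, the protein that takes cholesterol from the gut lumen into the enterocyte, and the design asks what the loss of Aster-B and Aster-C changes with this import open or blocked.

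Reads of the paralogs could be shared between them only where their sequences match, so the annotated transcripts were compared first. On GRCm38 (the assembly behind mm10), Gramd1a (ENSMUSG00000001248) lies on chromosome 7 from 31130127 to 31155896 on the minus strand. Gramd1b (ENSMUSG00000040111) lies on chromosome 9 from 40293233 to 40531383 on the minus strand. Gramd1c (ENSMUSG00000036292) lies on chromosome 16 from 43980350 to 44063345 on the minus strand, and Gramd4 (ENSMUSG00000035900) lies on chromosome 15 from 86057695 to 86137634 on the plus strand. In global alignments of the coding sequences, Gramd1a and Gramd1b were identical at 63.8% of 2085 aligned bases, Gramd1a and Gramd1c at 61.7% of 1883, and Gramd1b and Gramd1c at 61.5% of 1944. None of the 4 genes shared a stretch of 50 bases with another of the 4. The longest identical run between Gramd1a and Gramd1b was 26 coding bases long, and it is shown as the longest stretch they share without a difference. How well reads of the paralogs can be told apart was not tested. The run is placed as follows. It lies at chr7:31142558-31142583 in Gramd1a and at chr9:40316872-40316897 in Gramd1b. The matching stretch of Gramd1c, at chr16:44030987-44031012, is identical at 23 of the 26 bases. Each stretch lies in 1 exon on the minus strand and is read 5′ to 3′ from the transcript, and capitals mark the 3 bases of Gramd1c that differ.
Gramd1a: ttctacagcaacatcttccgctggga
Gramd1b: ttctacagcaacatcttccgctggga
Gramd1c: ttctaTagcaacatcttcAgAtggga

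Of the distinct 50-base stretches in the transcripts of Gramd1a, 5.76% were also in another annotated gene, the antisense gene G630030J09Rik, which had at most 2.11 normalised counts in any library. Of those of Gramd1b, 0.996% were in other genes, among them the antisense gene 1700110K17Rik, with 11.78 to 37.28 normalised counts per library. Gramd1c and Gramd4 shared none. The sources used here do not say whether counting used strand, so reads of Gramd1a or Gramd1b and of these antisense partners cannot be told apart where they overlap.

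Promoter windows from RefSeq (GRCm38.p6, 250 bases before to 50 after a start) were at hand for Gramd1a (1 window), Gramd1c (3) and Gramd4 (3). They were searched on both strands for the nuclear receptor motif AGGTCA, for a pair of such motifs on 1 strand with 4 bases between them (the spacing LXR binds), for the sterol element TCACNCCAC, for the E-box CACGTG and for the D-box TTATGCAA. Of all 32851 windows, 16.3% held AGGTCA, 0.0152% the spaced pair, 1.24% the sterol element, 7.15% the E-box and 0.743% the D-box. In the windows of the 3 genes the E-box was the one motif found. It was in 2 windows of Gramd1c and in 2 overlapping windows of Gramd4, and 1 window of each gene is given 5′ to 3′ with the E-box in capitals. The 3 Gramd1c windows and the Gramd1a window lie inside these genes as annotated. None of them covers the annotated 5′ end, at 44063345 on chromosome 16 for Gramd1c and 31155896 on chromosome 7 for Gramd1a. The search therefore did not reach those ends. The Gramd1c window is chr16:44016387-44016686 on the minus strand and the Gramd4 window is chr15:86058477-86058776 on the plus strand.
Gramd1c: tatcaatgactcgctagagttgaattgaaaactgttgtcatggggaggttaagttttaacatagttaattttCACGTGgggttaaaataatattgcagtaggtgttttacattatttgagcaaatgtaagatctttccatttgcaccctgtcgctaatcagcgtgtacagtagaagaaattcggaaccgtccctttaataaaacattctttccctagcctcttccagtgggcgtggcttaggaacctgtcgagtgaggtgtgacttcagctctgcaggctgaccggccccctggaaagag
Gramd4: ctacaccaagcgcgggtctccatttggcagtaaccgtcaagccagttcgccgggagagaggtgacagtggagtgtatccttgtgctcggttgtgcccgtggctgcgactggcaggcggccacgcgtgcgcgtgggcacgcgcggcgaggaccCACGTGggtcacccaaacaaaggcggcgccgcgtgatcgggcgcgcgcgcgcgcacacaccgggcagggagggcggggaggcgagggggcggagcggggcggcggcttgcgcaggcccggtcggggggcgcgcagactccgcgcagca

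Values are normalised counts, which are read counts divided by a size factor of the library. The reads behind them summed to between 13855034 and 19307079 per library. KO ezetimibe replicate 3 and WT control replicate 4 stood farthest apart on the first principal component (27.7% of the variance), so results are also given without these 2 libraries. The 10 enterocyte markers summed to between 633600 and 1042000 per library, and no marker of any of the 14 cell type and gut segment lists was at 0 in every library. The labels do not say that libraries of a group come from separate mice, so a p-value sets a difference against the spread of these samples, which may be technical. In bulk tissue, fewer cells of a type and less RNA per cell cannot be told apart.

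Gramd1c, the Aster-C gene, was the most reduced of the 4 genes in KO jejunum on both diets. On the control diet it had 194.0, 119.4 and 114.8 normalised counts in the 3 KO libraries, against 1287, 1059, 1845 and 1339 in the 4 WT libraries. On ezetimibe it had 71.75, 143.7, 120.3 and 155.5 in the 4 KO libraries, against 1243, 1106, 1102 and 1394 in the 4 WT libraries. No KO library reached the WT range, and the lowest WT value was 5.46 times the highest KO value. On the log2 scale KO differed from WT by −3.28 ± 0.247 (SE) on the control diet and by −3.34 ± 0.229 (SE) on ezetimibe, at a limma adjusted p of 9.32e-06 on the control diet and of 2.31e-06 on ezetimibe. What remained was 10.3% of the WT mean on the control diet, with 8.30% to 14.0% in the 3 KO libraries, and 10.1% on ezetimibe, with 5.92% to 12.8% in the 4. These residual levels rested on 67 to 239 reads per library, so they are above a count of 0 in each KO library.

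Gramd1b, the Aster-B gene and on average the most abundant of the 3 paralogs in WT per length, was also lower in KO, but a larger part of its signal remained than for Gramd1c. On the control diet it had 1247, 961.9 and 1229 normalised counts in KO, against 3784, 2274, 4046 and 2608 in WT. On ezetimibe it had 1763, 1754, 2086 and 1744 in KO, against 2859, 2995, 3697 and 3412 in WT. The KO and WT libraries did not overlap on either diet, and the KO libraries of the 2 diets did not overlap either. KO differed from WT by a log2 value of −1.44 ± 0.175 on the control diet (SE, limma adjusted p = 0.0022). On ezetimibe the difference was −0.82 ± 0.162 (SE) and missed the threshold, with a limma adjusted p of 0.171 and an unadjusted p of 0.000131. Averaged over both diets it was −1.13 ± 0.119 (SE, limma adjusted p = 0.000386). Set against the WT mean of the same diet, KO libraries kept 36.1% (30.3% to 39.2%) on the control diet and 56.7% (53.8% to 64.4%) on ezetimibe.

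The call for Gramd1b on the control diet held in 27 of 28 alternatives. It was lost with the libraries of that diet alone (limma adjusted p = 0.15). On ezetimibe Gramd1b was called in 4 of 28 alternatives, and in none of the 15 fits without 1 library. DESeq2 on the recovered reads gave an adjusted p of 0.00194 there. Limma gave an adjusted p of 0.0298 after quantile normalisation, 0.0441 with the libraries of that diet alone and 0.0437 with the replicate block. Without both ends of the first principal component the limma adjusted p on ezetimibe was 0.24. In the authors' deposited table Gramd1b stands on ezetimibe at a log2 fold change of −0.82 with an adjusted p of 0.00203.

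Gramd1a, the Aster-A gene, was not targeted in these mice, and per length it was the least abundant member in every WT library. On the control diet it had 103.9, 166.5 and 144.1 normalised counts in KO, against 281.7, 197.1, 284.4 and 208.9 in WT. On ezetimibe it had 185.3, 184.4, 242.9 and 184.3 in KO, against 226.0, 297.7, 298.1 and 230.3 in WT. The groups did not overlap on the control diet, while on ezetimibe KO replicate 3 stood above 2 of the 4 WT libraries. Averaged over both diets, Gramd1a fell in KO, to 173.0 against 253.0 in WT, a log2 difference of −0.61 ± 0.127 (SE) with a 95% interval from −0.88 to −0.34 and a limma adjusted p of 0.0242. On the control diet alone the log2 fold change was −0.82 ± 0.186 (SE, limma adjusted p = 0.0636), and on ezetimibe alone it was −0.40 ± 0.172 (SE, limma adjusted p = 0.286), so limma called it on neither diet by itself. On the control diet 2 of 28 alternatives called Gramd1a. These were DESeq2 on the recovered reads (log2 fold change −0.82, adjusted p = 0.00518) and the replicate block (−0.87, limma adjusted p = 0.0246).

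The averaged call for Gramd1a held in 23 of 27 alternatives. It was lost without KO control replicate 1 (log2 fold change −0.51, limma adjusted p = 0.0743), without KO ezetimibe replicate 4 (−0.59, adjusted p = 0.0505), without WT ezetimibe replicate 2 (−0.58, adjusted p = 0.0558) and under quantile normalisation (−0.56, adjusted p = 0.0537). Without both ends of the first principal component it was −0.69 (limma adjusted p = 0.0202). In the authors' deposited table Gramd1a stands on the control diet at −0.82 with an adjusted p of 0.00602, and their table for ezetimibe does not list it.

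Markers of several other cell types were also lower in KO. In KO against WT averaged over both diets, limma called 4.04% of all genes tested. All 6 markers of T and natural killer cells had a negative log2 fold change there, and 5 of the 6 were called. Their summed level was 2368 to 3082 in KO and 2956 to 5217 in WT on the control diet, and 3093 to 4357 in KO and 4252 to 5867 in WT on ezetimibe. Within WT on the control diet the libraries with more Gramd1a, replicates 1 and 3, had sums of 4981 and 5217, and replicates 2 and 4 had 3084 and 2956. In WT on ezetimibe the order held in part. Replicate 3, with the most Gramd1a, had the highest sum, 5867, and replicate 4, with 230.3 normalised counts of Gramd1a, had the lowest, 4252. Replicate 1, with the least Gramd1a, had 5782, and replicate 2, with 297.7 normalised counts, had 5266. In KO on the control diet the sums of replicates 1, 2 and 3 (2368, 3082 and 2458) followed the order of Gramd1a. In KO on ezetimibe replicate 3 was highest in both, with a sum of 4357, and replicate 4 lowest in both, with 3093. Replicates 1 and 2 there (3471 and 3578) stood in the reverse order. All 6 Paneth cell markers were negative as well, with 3 called and a median log2 fold change of −1.17, and their sums were 8714 to 14890 in KO and 16910 to 56840 in WT on the control diet, and 7195 to 12480 in KO and 7908 to 33440 in WT on ezetimibe. All 6 stem and dividing cell markers were negative, with 4 called and a median of −1.08, and their sums were 633.8 to 1714 in KO and 1715 to 4857 in WT on the control diet, and 986.3 to 2051 in KO and 1539 to 3073 in WT on ezetimibe. Of other lists, the 5 markers of B and plasma cells (median −1.07) and the 2 of duodenum (−0.51) were all negative, with none called. Markers of enterocytes (10 of 10, median 0.20), distal ileum (2 of 2, 1.11) and adipocytes (3 of 3, 1.52) were all positive, with none called. The distal ileum sums were 1781 to 2302 in KO and 1168 to 1495 in WT on the control diet. On ezetimibe they were 1283 to 5346 in KO and 942.8 to 1463 in WT. No marker of these lists was at 0 in every library, and the part of any of them in the level of Gramd1a was not tested.

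Gramd4 showed no difference past the threshold in any comparison. On the control diet it had 1099, 1041 and 936.9 normalised counts in KO, against 1244, 716.5, 1121 and 943.5 in WT. On ezetimibe it had 922.1, 1192, 1533 and 1491 in KO, against 738.1, 940.0, 1262 and 1063 in WT. The KO and WT libraries overlapped on both diets, and on the control diet the WT range took in the whole KO range. On the log2 scale KO differed from WT by 0.05 (95% interval −0.39 to 0.50, adjusted p = 0.942 by limma) on the control diet and 0.36 (95% interval −0.05 to 0.77, limma adjusted p = 0.343) on ezetimibe. Both intervals span 0, and the second reaches further up than down.

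Over all 14299 genes tested, limma called 0.371% in KO against WT on the control diet, 0.00699% (1 gene, Gramd1c) on ezetimibe and 4.04% averaged over both diets. Of the 4 members it called 2, 1 and 3 in these comparisons, all lower in KO. The 3 members below the WT range on the control diet compare with 5.58% of all named genes tested whose KO libraries all lay below all WT libraries, and the 2 on ezetimibe with 4.84%. Gramd1b and Gramd1c are the genes the mice were made to lack, so Gramd1a and Gramd4 are the members whose level the genotype did not set by design.

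**Figure D1:**
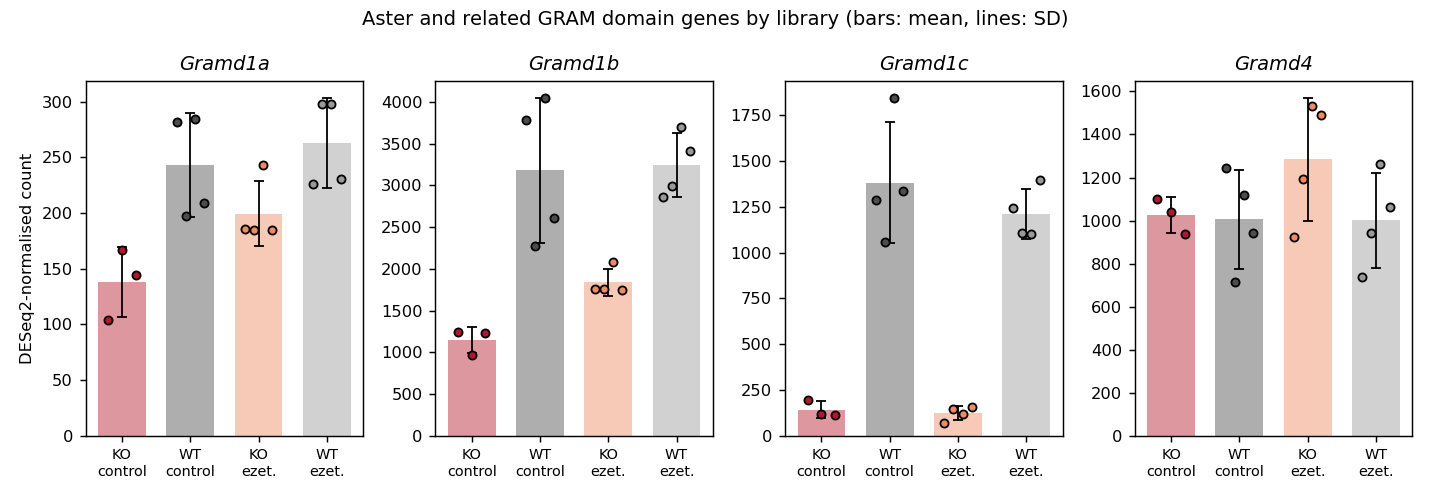
Normalised counts of the 4 genes in each library (points), with group means (bars) and SD (lines), for KO and WT on the control diet (n = 3 and 4) and on ezetimibe (n = 4 each). Gramd1c and Gramd1b lie lower in KO on both diets without overlap, Gramd1a overlaps on ezetimibe, and Gramd4 overlaps on both diets.

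To compare genes with each other, normalised counts were divided by the length of the gene's merged exons in kilobases, which is 5239 bases for Gramd1a, 10075 for Gramd1b, 5018 for Gramd1c and 5567 for Gramd4. These levels are per kilobase from here to the end of the account of shares. In WT jejunum Gramd1b and Gramd1c were close to each other and far above Gramd1a. On the control diet Gramd1b averaged 113.8 in KO and 315.4 in WT, and on ezetimibe 182.3 in KO and 321.6 in WT. Gramd1c averaged 28.5 in KO and 275.5 in WT on the control diet, and 24.5 in KO and 241.4 in WT on ezetimibe. Gramd1a averaged 26.4 in KO and 46.4 in WT on the control diet, and 38.0 in KO and 50.2 in WT on ezetimibe. Gramd4, at 184.3 in KO and 180.8 in WT on the control diet and 230.8 in KO and 179.8 in WT on ezetimibe, stood between the Aster genes in WT and above all 3 of their means in KO.

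The order of the 4 levels differed between genotypes. In KO the order Gramd4, Gramd1b, Gramd1a, Gramd1c held in 2 of 3 control libraries and in 3 of 4 ezetimibe libraries. In WT the order Gramd1b, Gramd1c, Gramd4, Gramd1a held in 3 of 4 libraries on each diet. In KO control replicate 1, Gramd1c stood above Gramd1a (38.6 against 19.8), and in KO ezetimibe replicate 1, Gramd1b stood above Gramd4 (175.0 against 165.6). Gramd1c stood above Gramd1b in WT control replicate 4 (266.8 against 258.9), and Gramd4 stood above Gramd1c in WT ezetimibe replicate 3 (226.7 against 219.6). The ratio of Gramd1b to Gramd1c in WT was 1.15 ± 0.217 (SD, n = 4) on the control diet, which lay within its spread of 1. On ezetimibe it was 1.35 ± 0.232 (SD, n = 4) in WT, from 1.15 to 1.67, so above 1 in each library. In KO on the control diet the ratio of Gramd1c to Gramd1a was 1.18 ± 0.670 (SD, n = 3), also within its spread of 1. In KO on ezetimibe Gramd1a was above Gramd1c in all 4 libraries, and the ratio of Gramd1c to Gramd1a was 0.654 ± 0.229 (SD, n = 4), against 4.95 ± 1.27 (SD, n = 4) in WT.

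Summed over the 3 Aster genes, the level on the control diet averaged 168.6 ± 16.0 in KO (SD, n = 3), against 637.3 ± 151.4 in WT (SD, n = 4). It averaged 244.8 ± 22.7 in KO and 613.2 ± 45.2 in WT on ezetimibe (SD, n = 4 each). Of that sum, Gramd1b made up 67.3% ± 3.83 in KO and 49.2% ± 3.89 in WT on the control diet, and 74.5% ± 2.45 in KO and 52.4% ± 3.28 in WT on ezetimibe. Gramd1c made up 16.7% ± 4.06 in KO and 43.4% ± 4.20 in WT on the control diet, and 10.0% ± 3.05 in KO and 39.4% ± 4.07 in WT on ezetimibe. So the largest share belonged to Gramd1b in each group mean, although its own level was lower in KO, and the shares of Gramd1b and Gramd1c did not overlap between KO and WT libraries on either diet.

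Gramd1a made up 10.9%, 21.0% and 16.0% of the sum in the 3 KO control libraries, against 7.84%, 7.93%, 6.59% and 7.05% in WT. On ezetimibe it made up 15.7%, 14.8%, 16.7% and 14.7% in KO, against 7.51%, 9.89%, 8.84% and 6.66% in WT. The share of Gramd1a was therefore higher in every KO library than in every WT library of the same diet, while its level was lower in KO on average. A share is tied to the other shares of the same library, and the deletion of Gramd1b and Gramd1c sets its direction, so no test is given. Without any 1 library, or with the longest transcript as the length, every mean share stayed within 1 SD. A sum of reads with no length correction gave Gramd1b 80.1% in KO and 65.8% in WT on the control diet, and Gramd1a 9.92% in KO and 5.12% in WT.

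**Figure D2:**
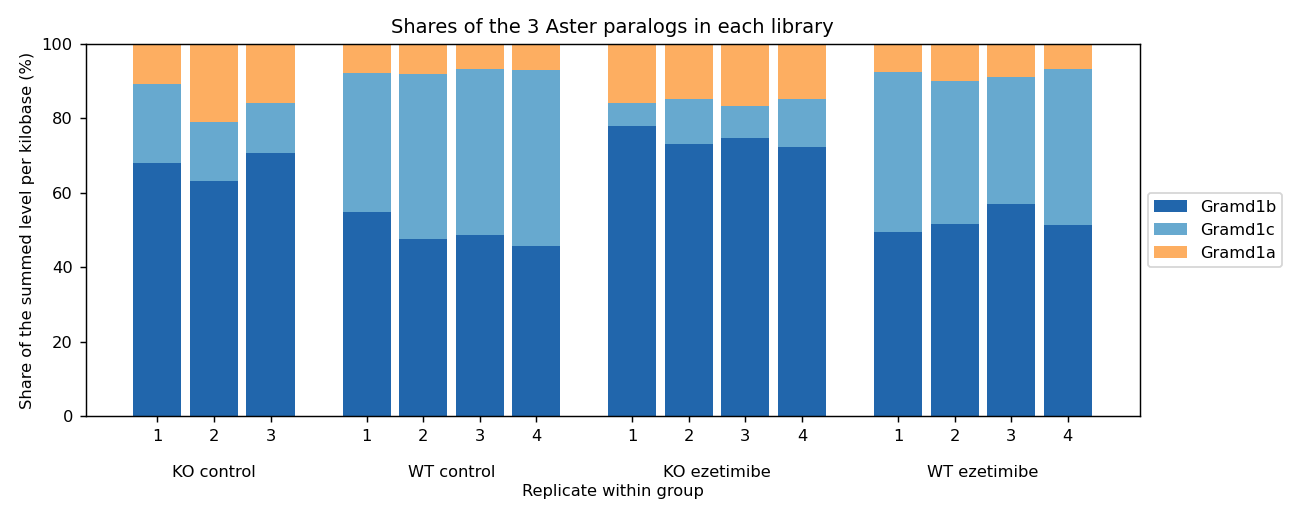
Share (%) of Gramd1b, Gramd1c and Gramd1a in their summed level per kilobase, stacked for each of the 15 libraries by group. The Gramd1c share is 6.37% to 21.2% in KO libraries and 34.1% to 47.2% in WT libraries, and the Gramd1a share is larger in every KO library than in every WT library.

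With Gramd4 counted in, it held the largest mean share in KO. Gramd4 made up 52.2% in KO and 22.2% in WT on the control diet, and 48.1% in KO and 22.5% in WT on ezetimibe. Gramd1b made up 32.2% in KO and 38.3% in WT on the control diet, and 38.7% in KO and 40.5% in WT on ezetimibe. Ranked per kilobase among 14246 genes, mean Gramd1b stood at the 66.97th percentile in KO and the 84.7th in WT on the control diet, and mean Gramd1c at the 39.8th in KO and the 82.9th in WT. Mean Gramd4 stood at the 75.9th percentile in KO and the 76.3rd in WT.

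Ezetimibe changed no member past the threshold in either genotype. In WT limma called 0.217% of all genes and 0 of 4 members on ezetimibe against the control diet, and 0 of 4 had an unadjusted p under 0.05. Gramd1b averaged 3241 ± 385 on ezetimibe and 3178 ± 868 on the control diet (SD, n = 4 each) in WT, a 1.04-fold difference with a 95% interval of 0.823 to 1.33. Gramd1c averaged 1211 ± 138 on ezetimibe and 1383 ± 331 on the control diet (SD, n = 4 each) in WT, a 0.890-fold difference with an interval of 0.635 to 1.25. The intervals for Gramd1a (0.844 to 1.40-fold) and Gramd4 (0.750 to 1.32-fold) were of like width. Each interval spans 1, and the highest upper bound is 1.40-fold.

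In the same WT libraries the sterol-regulated comparators moved. Of 14 such genes, all tested, limma called 5 higher and 2 lower on ezetimibe, with a median log2 fold change of 0.29 beside −0.01 over all genes. Abca1, the LXR target that exports cholesterol, fell to 183.3 on ezetimibe, against 1759 on the control diet (log2 fold change −3.26 ± 0.180, SE, limma adjusted p = 9.51e-08). Insig1, which holds SREBP processing in check and is itself an SREBP target, rose by a log2 value of 1.17 (limma adjusted p = 0.000788). None of the 4 members passed the threshold there: the fold changes of Gramd1a, Gramd1b, Gramd1c and Gramd4 in this comparison were 0.12, 0.06, −0.17 and −0.00 on the log2 scale.

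In KO, limma called 0.727% of all genes on ezetimibe against the control diet, and again 0 of 4 members. An unadjusted p under 0.05 was reached by 2 of 4 members and by 22.9% of all genes. Gramd1b averaged 1837 ± 167 (SD, n = 4) on ezetimibe and 1146 ± 159.9 (SD, n = 3) on the control diet, a log2 difference of 0.69 ± 0.175 (SE) that missed the threshold (limma adjusted p = 0.0574). Gramd1a averaged 199.2 ± 29.1 (SD, n = 4) on ezetimibe and 138.1 ± 31.7 (SD, n = 3) on the control diet, a log2 difference of 0.54 ± 0.186 (SE, limma adjusted p = 0.11). For both genes all 4 ezetimibe libraries lay above all 3 control libraries, which was so for 8.66% of all named genes tested. Of 28 alternatives, 3 called Gramd1b here. They were DESeq2 on the recovered reads (adjusted p = 0.00936), limma with a filter on a mean of at least 50 (adjusted p = 0.0495) and limma with the replicate block (adjusted p = 0.00987). Gramd1a was called in 1 of 28, limma with the replicate block (adjusted p = 0.0361), and by no count test.

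KO ezetimibe replicate 3, which had the highest Gramd1a and Gramd1b of its group, had a sum of 5346 for the 2 distal ileum markers Fabp6 and Slc10a2, against 1283 to 1731 in the other 3 libraries of that group and 1781 to 2302 in KO on the control diet. Without that library and WT control replicate 4, the log2 difference was 0.62 for Gramd1b (limma adjusted p = 0.153) and 0.44 for Gramd1a (adjusted p = 0.264). All 6 T and natural killer cell markers were also higher on ezetimibe in KO, with none called, and their sums were 3093 to 4357 on ezetimibe and 2368 to 3082 on the control diet. The same 6 were higher on ezetimibe in WT, with a median log2 fold change of 0.47 in WT as in KO, while Gramd1a and Gramd1b stood at 0.12 and 0.06 in WT. The part of these in the levels of Gramd1a and Gramd1b was not tested.

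Averaged over both genotypes, limma called 2.48% of all genes and 0 of 4 members on ezetimibe, and 2 of 4 members and 20.2% of all genes had an unadjusted p under 0.05. Gramd1b stood at a log2 difference of 0.37 (limma adjusted p = 0.098) and Gramd1a at 0.33 (adjusted p = 0.162). For the difference of the KO effect between ezetimibe and the control diet, limma called 0% of all genes, with 1004 genes at an unadjusted p under 0.05 and 0 to 5 genes called in the alternatives. The KO effect on Gramd1b was less negative on ezetimibe by a log2 value of 0.62 ± 0.238 (SE, unadjusted p = 0.0191, limma adjusted p = 0.681). For Gramd1c that difference was −0.06 with a 95% interval from −0.78 to 0.65, and for Gramd1a it was 0.42 with an interval from −0.12 to 0.96. These comparisons share libraries, since each KO library on ezetimibe enters both the KO effect and the ezetimibe effect in KO.

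**Figure D3:**
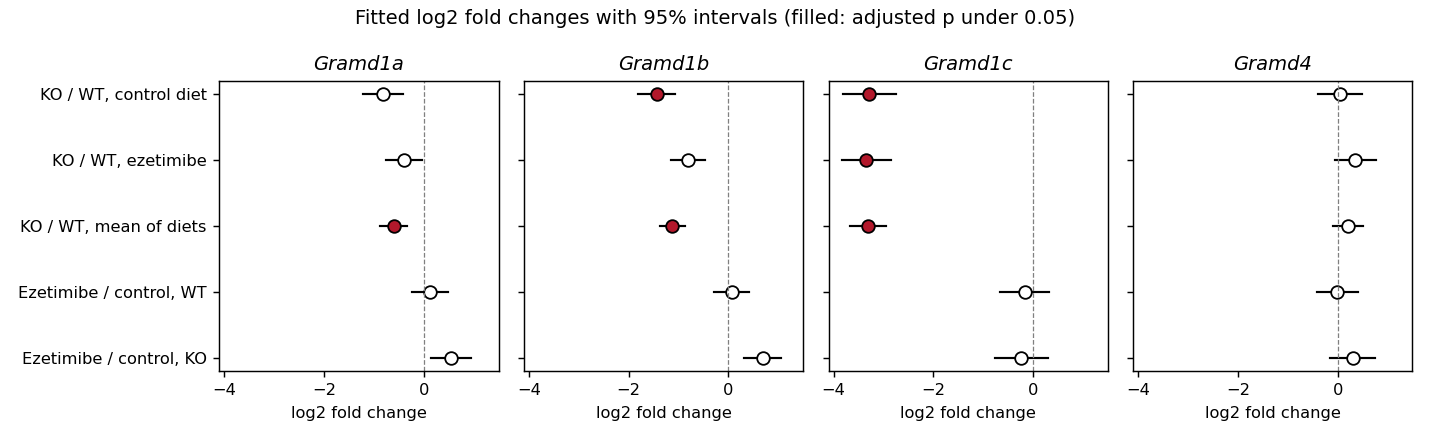
Fitted log2 fold changes (points) with 95% intervals (lines) of the 4 genes for KO over WT on each diet and averaged, and for ezetimibe over the control diet in WT and in KO; filled points have a limma adjusted p under 0.05. Gramd1c is near −3.3 in each KO comparison, Gramd1b is called on the control diet and averaged, Gramd1a is called averaged only, and no ezetimibe effect is called.

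Within groups the members varied together only in part. After the group mean was taken from each log2 value, Gramd1b and Gramd4 correlated with r = 0.699 and rho = 0.661 over the 15 libraries. Gramd1a correlated with Gramd4 at r = 0.515 and with Gramd1b at r = 0.464. Gramd1c correlated with Gramd4 at r = 0.531, with Gramd1b at r = 0.381 and with Gramd1a at r = −0.155. Within WT on the control diet, replicates 1 and 3 were high for Gramd1a, Gramd1b and Gramd4 and replicates 2 and 4 were low. The summed Paneth cell markers ran the other way there, at 16910 and 21180 in replicates 1 and 3 and 53560 and 56840 in replicates 2 and 4. None of the 6 was at 0 in every library. Stem and dividing cell markers split alike, at 1715 and 2033 against 3710 and 4857. Sums for B and plasma cells, macrophages, smooth muscle and stroma, endothelium and adipocytes were also higher in replicates 2 and 4. Sums for enterocytes, goblet cells and T and natural killer cells were higher in replicates 1 and 3, and the remaining lists showed no such split. The part of these cell types in the levels of the 4 genes was not tested.

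By the same measure, the genes with the pattern most like that of each member, among tested genes with a mean of at least 50, were as follows. For Gramd1a they were Ets1 (r = 0.920), a transcription factor found in lymphocytes, Leprotl1 (r = 0.870) and Slc33a1 (r = 0.845). For Gramd1b they were Kdm4a (r = 0.975), a histone demethylase, Gmip (r = 0.946) and Tmem8 (r = 0.942). For Gramd1c they were Mfhas1 (r = 0.938), Nsf (r = 0.922), which takes membrane fusion complexes apart, and Gpcpd1 (r = 0.912). For Gramd4 they were Txndc11 (r = 0.920), Slc23a4 (r = 0.916) and Ada (r = 0.902), an adenosine deaminase. Without the 2 libraries farthest from the median of the member, the r of these 12 genes was between 0.782 and 0.957. They were picked as the highest of all genes, so their r is a description of 15 libraries.

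Of 15 other GRAM domain genes listed, 14 were in the table and tested, and limma called 0 of 14 in each of the 7 comparisons, in which the share called over all genes was at most 4.04%. In KO against WT averaged over both diets, 11 of 14 had a positive log2 fold change, with a median of 0.10 beside −0.00 over all genes, and 3 of 14 had an unadjusted p under 0.05, beside 22.2% of all genes. Gramd2, which encodes GRAMD2A, a protein of contact sites between endoplasmic reticulum and plasma membrane, stood nearest to the threshold. It had 470.7, 370.1 and 568.6 normalised counts in KO, against 273.1, 225.2, 384.3 and 289.4 in WT on the control diet. On ezetimibe it had 326.6, 403.1, 581.4 and 491.0 in KO, against 230.2, 332.4, 400.9 and 359.3 in WT. The libraries overlapped on both diets, and the averaged log2 fold change was 0.56 ± 0.155 (SE, limma adjusted p = 0.0528). Of 27 alternatives 6 called it, among them DESeq2 on the recovered reads (adjusted p = 0.0124). Without both ends of the first principal component the limma adjusted p was 0.13. Gramd3, which encodes GRAMD2B, stood at 0.26 (limma adjusted p = 0.283).

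**Figure D4:**
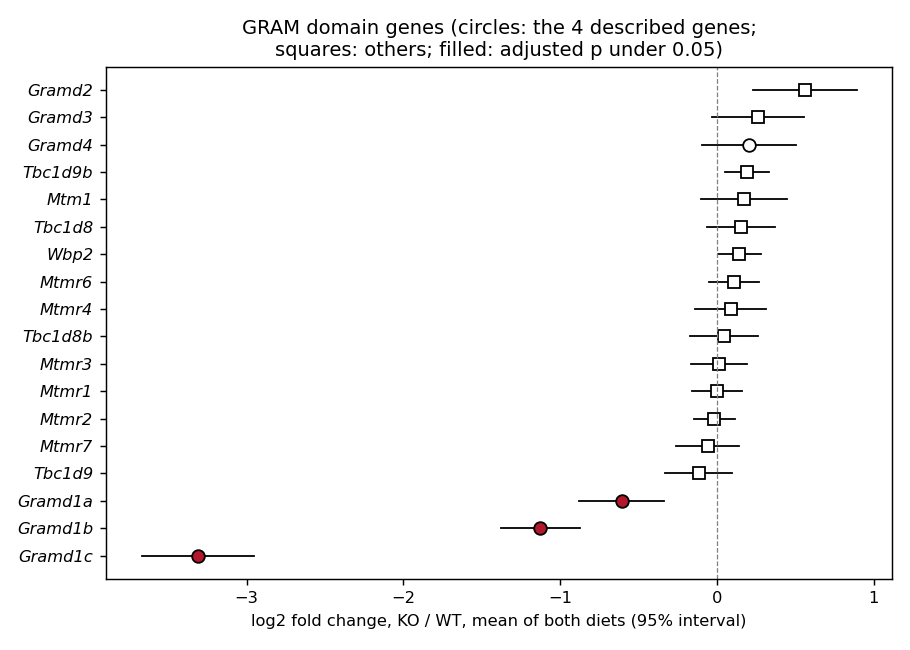
Log2 fold change in KO over WT averaged over both diets (points) with 95% intervals (lines) for the 4 genes (circles) and 14 other GRAM domain genes (squares), sorted by value; filled points have a limma adjusted p under 0.05. The 3 Aster genes are the lowest and the filled ones, and Gramd2 is the highest with an interval from 0.23 to 0.89.

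Other genes of sterol transfer were read from the same fit. Of 15 tested genes for other sterol transfer proteins, limma called 1 in KO averaged over both diets, beside 4.04% of all genes, and 6 of 15 had an unadjusted p under 0.05, beside 22.2% of all genes. Their median log2 fold change was 0.11. That gene was Scp2, which encodes sterol carrier protein and a peroxisomal thiolase, at 17720 in KO and 13900 in WT on the control diet and 16700 in KO and 14200 in WT on ezetimibe (log2 fold change 0.30 ± 0.0774, SE, limma adjusted p = 0.0444). The call held in 11 of 27 alternatives. Of 10 tested tethers of endoplasmic reticulum and plasma membrane, limma called 0 in each of the 7 comparisons, with 1 at an unadjusted p under 0.05 in 6 of them and 2 in the ezetimibe comparison within KO. Among the sterol-regulated comparators, Insig1 and Hmgcs1 rose and Abca1 fell in KO averaged over both diets, each called by limma. Abca1 stood at −1.24 (limma adjusted p = 0.000386) in that comparison.

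The genes next to the members on the chromosomes were also read. Zdhhc23, which encodes a palmitoyltransferase and lies 559 bases from Gramd1c, fell in KO averaged over both diets. It had 355.5, 336.6 and 405.1 normalised counts in KO, against 516.6, 460.4, 556.3 and 574.7 in WT on the control diet. On ezetimibe it had 358.8, 346.3, 420.3 and 467.6 in KO, against 503.7, 462.9, 547.1 and 467.9 in WT. The libraries did not overlap on the control diet, and on ezetimibe KO replicate 4 stood above WT replicate 2. The averaged log2 fold change was −0.42 ± 0.0825 (SE, limma adjusted p = 0.0211), and the call was lost without KO control replicate 1 (adjusted p = 0.0673). On the other side of Gramd1c, Atp6v1a, a subunit of the vacuolar proton pump, stood at 0.06 (limma adjusted p = 0.609).

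Celsr1, an adhesion receptor gene that lies 23918 bases from Gramd4, averaged 16.0 in KO and 40.8 in WT on the control diet and 30.0 in KO and 38.8 in WT on ezetimibe. Its averaged log2 fold change was −0.83 ± 0.218 (SE, limma adjusted p = 0.0448), a call that held in 11 of 26 alternatives, and Cerk on the other side of Gramd4 was not called. The summed stem and dividing cell markers, given beside Gramd1a, were also lower in KO. Their part in the level of Celsr1 was not tested. Next to Gramd1b, Scn3b was under the filter on low values.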

How the data were processed

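Libraries were built from total RNA of frozen distal jejunum (NEBNext Ultra II), per the labels' protocols. FastQC, STAR 2.6.0c, mm10 and DESeq2 were used, per the submitters' processing notes, and the sources used here name no read counter or annotation. The deposited table holds a signal, DESeq2-normalised counts of 26844 genes in 15 libraries, per the file headers. In each library 100% of values were whole multiples of what 1 read is worth (relative tolerance 0.0001), so reads were recovered for the count tests. The authors also deposited tables of KO against WT per diet with a mean signal, log2 fold changes and standard errors, p-values, Wald scores and fold changes (ratio), per the file headers. The text names them where it uses them.

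Limma 3.58.1 with a mean-variance trend was fitted to log2(value + 1) of all 15 libraries with 4 group means, in R 4.3.3. Genes that reached 10 in 3 or more libraries (14299) were tested, and those with a Benjamini-Hochberg adjusted p under 0.05 were called. Fold changes are on that scale, which understates low genes. Levels per kilobase used merged exons of GENCODE annotation on GRCm38, to which 26825 identifiers matched. Alternatives were pseudocounts of 0.5 and 5, no filter, a filter on means under 50, quantile and TMM scaling, compared groups alone, robust moderation, a replicate block, edgeR 4.0.16, DESeq2 1.42.0 and limma-voom on recovered reads, and each library left out. Leaving out both ends of the first principal component was chosen after seeing the data. The test was tried on simulated data first.

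The 4 genes and all lists were chosen with earlier results of these data known. Text names the 4 genes, called genes and up to 3 others per list, 4 sterol comparators, the 3 genes most like each member and flanking genes. Some genes that this rule names are not reported here. The labels number replicates without saying that a number marks a shared cage or day. Protein sequences were not used here. Figures were drawn with matplotlib 3.10.9.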

Additional observations from a re-analysis of the deposited data

Results flagged for a closer look

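In KO on ezetimibe, Gramd1a was 242.9 normalised counts in replicate 3, apart from 184.3 to 185.3 in the other 3 libraries. Gramd1b was 2086 in the same library, apart from 1744 to 1763 in the others. In each case the gap to the nearest library, divided by the range of the group, was above Dixon's critical value of 0.829 for 4 samples. Such gaps were looked for in 21 groups of values, and chance gives about 1 in 20. The same library lies at an end of the first principal component and has the highest sum of distal ileum markers, 5346; what sets it apart was not tested.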

How the results depend on the processing

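Directions and calls of the 4 genes in KO against WT kept to the same side of the threshold in most alternatives. Of the 4 members, the number called on the control diet was 1 rather than 2 with the compared groups alone (Gramd1b adjusted p = 0.15, limma), 3 with the replicate block and 3 with DESeq2, the added gene in both being Gramd1a. On ezetimibe it was 2 rather than 1 under quantile normalisation, 2 with the compared groups alone, 2 with the replicate block and 2 with DESeq2, the added gene being Gramd1b. In ezetimibe against the control diet within KO it was 1 rather than 0 with a mean of at least 50, 1 with DESeq2 and 2 with the block, and averaged over both genotypes it was 1 with the block. With any 1 library left out it stayed 2 in KO on the control diet, 1 in KO on ezetimibe and 0 in each ezetimibe comparison and in the difference between diets, and it was 2 to 3 in KO averaged over both diets.

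Small differences changed sign in places. Under quantile normalisation Gramd4 in KO on the control diet stood at −0.0014 and the Gramd1c difference between diets at 0.0026, and without both ends of the first principal component Gramd1b on ezetimibe in WT stood at −0.0186. With any 1 library left out, Gramd4 in KO on the control diet ranged from −0.0984 to 0.1667, Gramd1b on ezetimibe in WT from −0.0845 to 0.1924, Gramd4 there from −0.1576 to 0.1327, Gramd1c on ezetimibe in KO from −0.3662 to 0.0095, and the Gramd1c difference between diets from −0.2118 to 0.1778. The cause was not tested.

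With no length correction, the share of Gramd1a was 9.915% in KO and 5.119% in WT on the control diet and 9.197% in KO and 5.603% in WT on ezetimibe. That of Gramd1b was 80.14% in KO and 65.85% in WT, and 85.1% in KO and 68.61% in WT. That of Gramd1c was 9.946% in KO and 29.03% in WT, and 5.707% in KO and 25.79% in WT.

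Replicate numbers are shared between groups, and deviations of same-numbered libraries correlated with r between −0.242 and 0.331. These values cannot tell whether a number marks a shared cage or day, which was not tested. With the replicate block limma called 231 genes rather than 53 in KO on the control diet, 1915 rather than 104 on ezetimibe in KO, and Gramd1a in both (adjusted p = 0.0246 and 0.0361). Over all alternatives the genes called ranged from 3 to 452 in KO on the control diet, 1 to 78 on ezetimibe, 33 to 1236 averaged over both diets, 17 to 93 on ezetimibe in WT, 5 to 1915 in KO and 108 to 1489 averaged. Depth limits mainly Gramd1c and Gramd1a in KO. Gramd1c had 67 to 239 reads per library there. Gramd1a had 128 to 184 reads per library in KO on the control diet and 172 to 208 on ezetimibe.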
